A study of Mus musculus with 12 samples.

Results

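The genes for the proteins of the cytosolic ribosome were followed as a housekeeping group in chromatin accessibility data from brown fat and inguinal white fat (iWAT) of mice without BAF60a in adipocytes. Members were all ATAC-seq peaks assigned to a symbol made of Rpl or Rps and a number, with an optional a, b, x, l or p ending, and to Rplp0, Rplp1, Rplp2 and Rpsa. Kinases of the Rps6k family, pseudogenes and mitochondrial ribosomal proteins (Mrpl and Mrps) were left out. This gave 176 of 58558 peaks in the brown fat table, assigned to 68 genes, and 132 of 39558 peaks in the iWAT table, assigned to 70 genes.

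ATAC-seq counts the places where a transposase cuts open DNA, so more reads in a peak mean more accessible chromatin. Flox mice carried BAF60a flox/flox alleles on a C57BL/6 background, and AKO mice carried the same alleles with an Adiponectin-Cre transgene, which deletes BAF60a (gene Smarcd1) in cells that express Adiponectin and leaves the other cells of the tissue intact. Brown fat came from 3 flox and 3 AKO mice, each frozen alone, with no age or temperature labelled. iWAT came from 6 mice of each genotype, 6 to 8 months old and acclimated to 10 °C for 7 days, whose fat pads were pooled by genotype and divided into 3 aliquots, so that the spread between iWAT samples of 1 genotype is technical and p-values there speak of 2 pools.

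Each cytosolic ribosome has a large and a small subunit, and most of their proteins, named Rpl and Rps, are present in a single copy per ribosome. The genes are transcribed in practically every cell from compact promoters without a strong TATA box, often with sites for ETS factors, YY1 and SP1, and transcription commonly begins at a C inside a run of pyrimidines, a tract through which growth signalling controls translation of these messages. Because their output is thought to follow overall growth more than cell identity, several of them, Rplp0, Rpl13a, Rpl19 and Rps18 among them, are used as reference genes.

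Reads in peaks ranged from 6336670 to 27500738 per sample in brown fat and from 4066720 to 6691161 in iWAT. In brown fat the first principal component of all peaks (PC1) accounted for 55.6% of the variance and was used as a covariate. Its scores were -98.2, -41.8 and 14.6 in flox samples 1 to 3 and -0.617, 112 and 13.5 in AKO samples 1 to 3, the 2 extremes being the deepest library (flox 1) and the shallowest (AKO 2). A peak over a transcription start site was present for 6 of 6 adipocyte markers in both tissues (Adipoq, Plin1, Pparg, Fabp4, Cidec, Lipe) and for 0 of 5 leukocyte markers. It was present for 2 of 4 endothelial markers in brown fat and 1 of 4 in iWAT. For fibroblast or progenitor markers this was 1 of 3 and 2 of 3, and for skeletal muscle 1 of 4 in both. In brown fat, endothelial Kdr held 79.9 ± 14.8 in flox and 116.1 ± 30.1 in AKO (mean ± SD), and Tie1 58.46 ± 6.88 and 85.58 ± 29.98. Muscle Acta1 held 130.3 ± 32.8 and 176.5 ± 49.7, and fibroblast Pdgfra 374.6 ± 17.7 and 362.2 ± 93.02. Adipocyte Adipoq held 932 ± 46.2 and 1215 ± 44.8, and Plin1 953 ± 56.1 and 616 ± 114. Pparg held 1295 ± 108 and 1129 ± 147, and Fabp4 801 ± 102 and 595 ± 186. Cidec held 2053 ± 189 and 1531 ± 321, and Lipe 4204 ± 505 and 3034 ± 733. Of brown and beige markers, Ucp1 held 1206 ± 372 and 321 ± 39.3, and Cidea 1136 ± 283 and 909 ± 114. Dio2 held 376 ± 33.3 and 273 ± 24.0, and Ppargc1a 742 ± 28.7 and 504 ± 69.2. These differences were not tested. Of 4 markers of brown and beige adipocytes, Cidea, Dio2 and Ppargc1a had such a peak in both tissues, and Ucp1 had one in brown fat and none in iWAT. At Smarcd1 the peak over the start site differed little between genotypes, with a log2 fold change of 0.19 in brown fat and 0.11 in iWAT, while a second peak inside the gene in brown fat held 136, 201 and 185 normalized reads in the flox against 23.7, 57.9 and 26.9 in the AKO samples. Whether that second peak lies in the deleted part of the gene was not tested. In whole tissue, fewer cells of a type and less accessible chromatin per cell cannot be told apart.

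A promoter peak was a peak that reached into the stretch from 1000 bp before to 100 bp after a RefSeq start of its own gene. Of 78 autosomal genes that fit the symbol rule, 64 had one in brown fat and 67 in iWAT, 1 peak a gene, and each of these peaks covered the start site itself. X-linked members (4 genes) were outside the tables, since the authors kept autosomal reads. For 10 further genes in brown fat and 7 in iWAT the start lay in a peak that the tables assign to a neighbour, as for Rps18, whose start lies in a peak named Vps52. For 4 genes no peak covered the start in either tissue, and these were Rpl3l, Rpl10l, Rpl32l and Rpl39l, 3 of which are paralogs with narrow tissue expression. The remaining 112 member peaks in brown fat and 65 in iWAT were distal.

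To show what these promoters have in common, 74 bases from 60 before the start site to 14 from it on are given for the genes to which the results return, 5′ to 3′ on the gene's strand, from RefSeq (GRCm38.p6, the assembly also called mm10). Capitals mark the ETS word CCGGAA in either orientation and, at the start site, a C with the pyrimidines that follow it without a break, where at least 4 follow.
Rps21 (chr2:180257319-180257392, + strand): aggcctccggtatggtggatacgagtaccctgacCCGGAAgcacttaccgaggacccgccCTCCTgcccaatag
Rpl15 (chr14:18270973-18271046, - strand): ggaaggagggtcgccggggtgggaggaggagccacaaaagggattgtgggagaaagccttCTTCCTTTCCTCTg
Rpl35 (chr2:39005118-39005191, - strand): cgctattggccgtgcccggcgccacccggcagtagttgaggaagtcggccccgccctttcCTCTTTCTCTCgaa
Rpl19 (chr11:98026650-98026723, + strand): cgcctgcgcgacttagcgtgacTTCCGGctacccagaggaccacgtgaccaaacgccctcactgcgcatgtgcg
Rplp0 (chr5:115559407-115559480, + strand): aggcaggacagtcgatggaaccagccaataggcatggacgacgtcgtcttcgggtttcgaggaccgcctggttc
Rpl13a (chr7:45128732-45128805, - strand): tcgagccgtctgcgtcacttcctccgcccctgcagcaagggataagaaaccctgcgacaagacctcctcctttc
Rpl22 (chr4:152325666-152325739, + strand): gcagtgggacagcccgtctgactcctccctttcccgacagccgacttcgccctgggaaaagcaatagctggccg
Rpl37a (chr1:72711200-72711273, + strand): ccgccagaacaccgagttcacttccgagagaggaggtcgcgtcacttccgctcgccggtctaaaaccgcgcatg
Rps21, Rpl15 and Rpl35 began in a pyrimidine tract, of 5, 13 and 11 bases. Rps21 and Rpl19 held the ETS word within this stretch. Rpl15 and Rpl35 held it farther out, between 250 bases before and 50 after the start. Rplp0, Rpl13a, Rpl22 and Rpl37a had neither feature at the RefSeq start.

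A RefSeq promoter sequence (250 bases before to 50 after the start) was available for 57 of 78 autosomal members, and the others were not searched. Over these 57 the ETS word was present in 28 promoters (49.1%), against 15.4% of all 25748 autosomal promoters and 26.6% of the 9133 genes with a promoter peak in brown fat. A start in a pyrimidine tract was found in 13 members (22.8%), against 2.51% of all promoters. The YY1 word AAGATGG was present in 14% of members and 6.51% of all promoters, and the CRE word TGACGTCA in 8.77% and 1.92%. For the SP1 word GGGCGG the order depended on the comparison, with 56.1% of members between 36.3% of all promoters and 66.5% of those with a brown fat peak. The word TATAA was found in 24.6% of members, beside 25.6% of all promoters and 12.4% of those with a brown fat peak. The E-box CACGTG was found in 8.77% of members, between 7.23% of all promoters and 10.4% of those with a peak, and the NRF1 word in 8.77%, between 6.58% and 13.5%. For the tract, YY1 and CRE the shares among promoters with a brown fat peak were 2.23%, 6.66% and 3.34%. All words were searched on both strands, except the tract, which was read on the gene's strand, and a match describes letters and not binding.

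**Figure D1:**
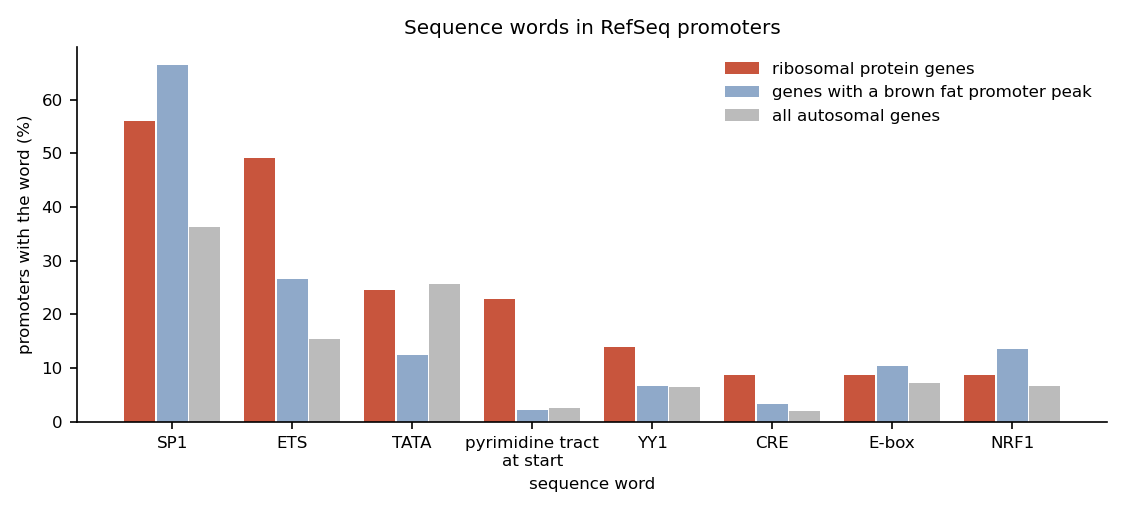
Share of promoters (vertical axis, %) that hold each sequence word (horizontal axis) among 57 ribosomal protein genes, genes with a brown fat promoter peak and all autosomal genes. The ETS bar of the ribosomal protein genes stands at 49.1% against 15.4% for all genes, and the tract at the start at 22.8% against 2.51%.

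The promoter peaks of the group were open in both tissues at a level above the middle of all promoters. Signal is given as normalized reads per 100 bp of peak, which corrects for the width of a peak, where normalized means scaled by each sample's size factor. The median member promoter held 49.8 in brown fat and 29.7 in iWAT, while medians of 40.0 and 24.3 were found over all 12013 and 11361 promoter peaks. These promoter peaks together held 0.207% to 0.269% of the reads in peaks of a brown fat sample and 0.288% to 0.305% of those of an iWAT sample. In brown fat the order began with Rps21, a small subunit protein, at 139 ± 20.0 in flox and 123 ± 24.7 in AKO (mean ± SD, n = 3 each), followed by Rps19, a small subunit protein mutated in Diamond-Blackfan anaemia, at 125 ± 19.5 and 122 ± 26.9. Rpl15 followed with 109 ± 19.1 and 104 ± 18.7. The SDs of these neighbours overlap, so their order is not resolved.

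In iWAT Rpl13a led with 64.1 ± 4.30 in flox and 62.7 ± 3.23 in AKO, followed by Rps21 with 58.2 ± 1.12 and 63.4 ± 6.88, again with overlapping SDs in AKO. The lower end of the list was also shared. Rps4l, a paralog of the X-linked Rps4x, was last in both tissues at 19.1 in brown fat and 7.94 in iWAT (mean of 6 samples), and Rpl37a was at rank 61 of 64 and 64 of 67. Across the 63 genes with a promoter peak in both tissues the rank correlation of the levels was 0.84 (Spearman's rho, a description across genes that share peak width and base composition between tissues). Rps2 had a member promoter peak in brown fat only, and Rpl4, Rpl34 and Rps27a had one in iWAT only; the start of each was covered in the other tissue by a peak under another symbol.

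**Figure D2:**
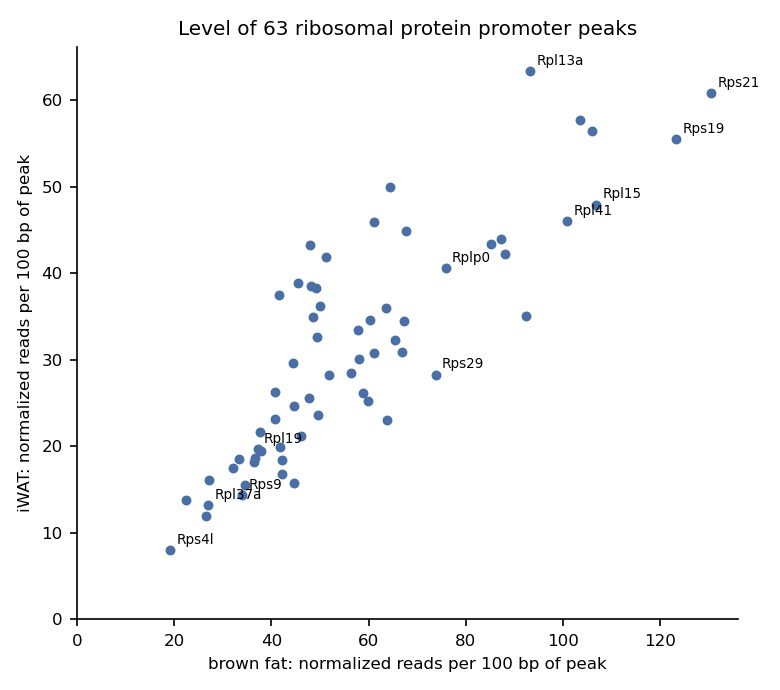
Level of 63 ribosomal protein promoter peaks in brown fat (horizontal axis) and iWAT (vertical axis), in normalized reads per 100 bp of peak, each point the mean of 6 samples. Genes high in one tissue were high in the other, with Rps21, Rps19 and Rpl13a at the upper right and Rps4l at the lower left.

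Limma called no member peak in either tissue, where it called no peak at all, and the count tools called few. In brown fat 0 of 176 members passed an adjusted p of 0.1 by limma with Benjamini-Hochberg adjustment over all peaks, where 0 of 58558 peaks passed (0.0%). In iWAT 0 of 132 passed, where 0 of 39558 peaks passed (0.0%). By DESeq2 on the recovered reads 0 members were called in brown fat, where 0.297% of all peaks were, and 1 member in iWAT, where 1.06% were. DESeq2 gave no adjusted p to 40 of 112 distal members in brown fat and 4 of 65 in iWAT, which could not be called. By edgeR 0 members were called in brown fat (0.143% of all peaks) and 5 in iWAT (4.67%). At an unadjusted limma p under 0.05, 2 member peaks were higher and 10 lower in AKO brown fat, against 3.46% and 5.59% of all peaks, and 7 were higher and 12 lower in AKO iWAT, against 7.61% and 7.42%. Of the promoter peaks these were 1 higher and 0 lower of 64 in brown fat, and 1 higher and 3 lower of 67 in iWAT. Over all promoter peaks they were 301 higher and 116 lower of 12013 in brown fat, and 424 higher and 366 lower of 11361 in iWAT.

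The fold changes of the promoter peaks were small, and their common direction in brown fat depended on the covariate. With PC1 in the fit the AKO to flox log2 fold change had a median of 0.17, 57 of 64 promoter peaks were above 0, and single values ran from -0.37 to 0.47 with SEs of 0.170 to 0.306. All promoter peaks had a median of 0.11 and all peaks one of 0.0067. Without PC1 the median was -0.13 and 55 of 64 promoter peaks were below 0, beside -0.055 for all promoter peaks and -0.014 for all peaks. Leaving AKO 2 out of the fit without PC1 brought the median to 0.018, with 34 peaks above and 30 below 0, leaving out flox 1 brought it to -0.023, and leaving out flox 3 brought it to -0.23. PC1 was computed from all peaks, the members included, so the covariate is not independent of the values it adjusts. Its lowest scores were those of flox 1 and flox 2 and its highest that of AKO 2. PC1 was thus partly aligned with genotype, and the fit with it can remove part of the difference between genotypes. How large that part is was not tested.

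Sample by sample, the 2 libraries at the ends of PC1 were also at the ends of the member promoters. The median member promoter held 518, 439 and 395 normalized reads in flox samples 1 to 3 and 437, 349.6 and 474 in AKO samples 1 to 3 of brown fat. Flox 1 was the highest and AKO 2 the lowest, and the other 4 samples of both genotypes interleave between them. In flox 1, 64 of 64 promoter peaks lay above their own log2 mean over the 6 samples, and in AKO 2 only 3 did. Distal member peaks did not share this order, with medians of 98.5, 115 and 120.3 in the flox against 94.8, 106 and 95.9 in the AKO samples. Relative to all promoter peaks of the same sample, member promoters stood 0.098, 0.038 and -0.055 log2 units off in flox and 0.0037, -0.165 and 0.025 in AKO samples. The median deviation from the peak's own mean ran from -0.33 in AKO 2 to 0.26 in flox 1 for member promoters and from -0.166 to 0.158 for all promoters in the same samples. It ran from -0.38 to 0.28 for translation factor promoters, from -0.36 to 0.29 for those of oxidative phosphorylation and from -0.27 to 0.23 for those of mitochondrial ribosomal proteins. The part of depth in these offsets was not tested.

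In iWAT the median member promoter held 195, 191 and 182 normalized reads in the flox against 174, 179 and 188 in the AKO samples, and the genotypes overlap. The spread was narrower than in brown fat, but these samples are aliquots of a pool and those of brown fat are single mice. The median log2 fold change was -0.054, with 27 of 67 promoter peaks above and 40 below 0, beside -0.0011 for all promoter peaks. Without flox 1 it was -0.0066, with 32 peaks above and 35 below 0, and without AKO 1 it was -0.030. Single values ran from -0.54 to 0.58 with SEs of 0.120 to 0.249. Large and small subunit promoters had alike medians in both tissues, 0.16 for 39 large and 0.18 for 25 small subunit genes in brown fat, and -0.056 for 41 and -0.047 for 26 in iWAT.

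**Figure D3:**
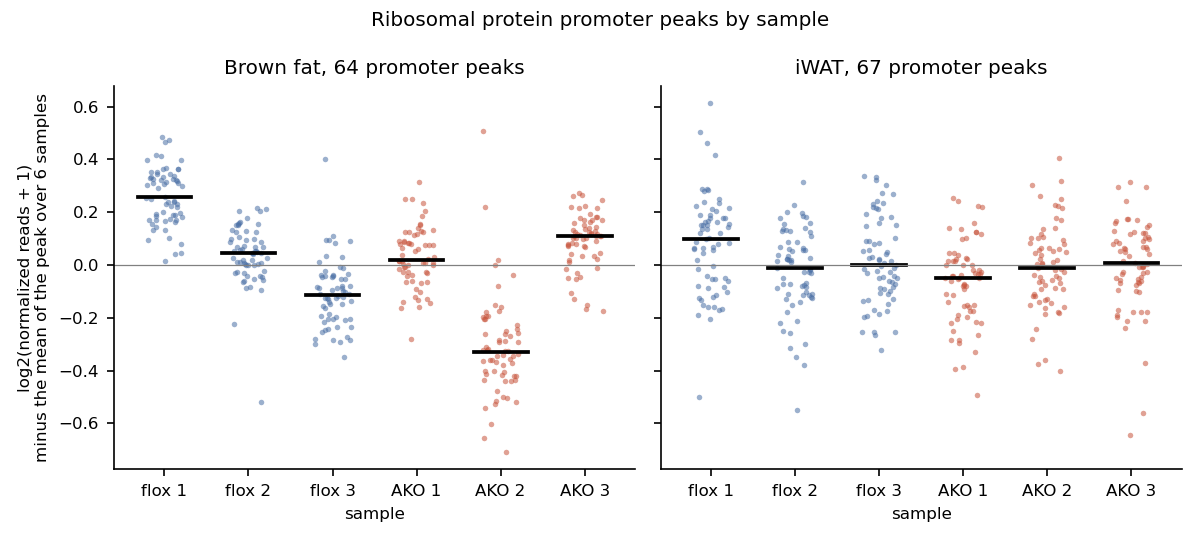
Deviation of each ribosomal protein promoter peak from its own mean over 6 samples (vertical axis, log2 of normalized reads plus 1), by sample (horizontal axis) in brown fat and iWAT, with points for peaks and bars for medians. In brown fat flox 1 is the highest and AKO 2 the lowest sample. In iWAT, where the samples of a genotype are aliquots of a pool, the medians lie closer together.

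Of the 4 reference genes, Rplp0, which encodes the scaffold of the acidic stalk and is also called 36B4, held 674, 649 and 476 normalized reads in the flox against 593, 421 and 611 in the AKO samples of brown fat. The groups overlap, and the log2 fold change was 0.24 ± 0.184 (SE, adjusted p = 0.73, limma with Benjamini-Hochberg adjustment) with PC1 and -0.15 without it. In iWAT it held 309, 282 and 309 in the flox against 383, 338 and 353 in the AKO samples, every AKO sample above every flox sample, with a log2 fold change of 0.25 ± 0.128 (SE, adjusted p = 0.41, limma with Benjamini-Hochberg adjustment).

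Rpl13a, a large subunit protein, held 1314, 1095 and 931 normalized reads in the flox against 1007, 676 and 1001 in the AKO samples of brown fat, and 427, 407 and 374 in the flox against 384, 380.2 and 417 in the AKO samples of iWAT. The groups overlap in both tissues. Its log2 fold change was 0.084 ± 0.171 (SE) with PC1 and -0.33 without it in brown fat, and -0.031 ± 0.129 (SE) in iWAT. Rpl19, whose promoter holds the ETS word, held 349.6, 265 and 243 in the flox against 329.9, 361 and 330.0 in the AKO samples of brown fat, where the flox 1 value lies among the AKO values. Rpl19 differed from most members in that AKO 2 was its highest sample, and its log2 fold change stayed positive in both fits, at 0.39 ± 0.224 (SE) with PC1 and 0.27 without. In iWAT it held 135, 122 and 117 in the flox against 153, 121 and 126 in the AKO samples, which overlap, with a log2 fold change of 0.092 ± 0.147 (SE). The start of Rps18 lay in the peak named Vps52, which held 559, 453 and 388 in the flox against 512, 386 and 491 in the AKO samples of brown fat, with overlap, and 256, 187 and 215 in the flox against 174, 167 and 171 in the AKO samples of iWAT, where every AKO sample was below every flox sample. Its log2 fold change was 0.33 ± 0.172 (SE) with PC1 and -0.0052 without it in brown fat. In iWAT it was -0.35 ± 0.153 (SE, adjusted p = 0.34, limma with Benjamini-Hochberg adjustment), so the reference genes Rplp0 and Rps18 pointed in opposite directions there without either passing the threshold.

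Among brown fat promoter peaks, Rpl3, a core protein near the peptidyl transferase centre, had the highest fold change with PC1. It held 401, 335 and 272 normalized reads in the flox against 380.4, 203 and 379 in the AKO samples, which overlap, for a log2 fold change of 0.47 ± 0.191 (SE, unadjusted p = 0.045, adjusted p = 0.55, limma with Benjamini-Hochberg adjustment) that became -0.11 without PC1. Next were Rpl19, Rps19 with 0.36 ± 0.173 (SE) and Rpl22, an RNA-binding protein of the large subunit, with 0.35 ± 0.175 (SE). Rps19 held 1800.1, 1520.0 and 1318 in the flox against 1776, 1140 and 1629 in the AKO samples, and Rpl22 held 501, 433 and 385 in the flox against 481, 375 and 517 in the AKO samples. Both show the low AKO 2 value, and in both the groups overlap.

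At the low end stood Rps4l with -0.37 ± 0.306 (SE), Rpl37a with -0.17 ± 0.175, Rpl9 with -0.12 ± 0.175 and Rps23 with -0.10 ± 0.191. Rpl37a, a zinc-binding protein of the large subunit, held 193, 205 and 195 normalized reads in the flox against 179, 158 and 169.8 in the AKO samples, and the groups do not overlap. Rpl9, at the base of the stalk, held 387, 342 and 314 in the flox against 310.3, 239 and 272 in the AKO samples. Rps23, next to the decoding centre, held 679, 517 and 547 in the flox against 474, 406 and 510.4 in the AKO samples. In both every AKO sample was below every flox sample. Rps20, with 945, 719 and 788 in the flox against 709, 605 and 717 in the AKO samples, was the other such promoter, chosen after its values were seen. None of the 64 promoter peaks had every AKO sample above every flox sample, beside 9.40% of all promoter peaks.

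In iWAT the lowest promoter peak was that of Rps29, a small subunit protein with a zinc-binding fold. It held 366, 252 and 325 normalized reads in the flox against 221, 199 and 222 in the AKO samples, which do not overlap. Its log2 fold change was -0.54 ± 0.169 (SE, adjusted p = 0.22, limma with Benjamini-Hochberg adjustment), and it was the member called by DESeq2, with -0.56 and a Benjamini-Hochberg adjusted p of 0.031. In brown fat the Rps29 promoter held 1232, 989 and 922 in the flox against 1041, 697 and 1128 in the AKO samples, which overlap, for a log2 fold change of 0.25 ± 0.189 (SE). Rps9 had -0.43 ± 0.137 (SE) in iWAT, from 149, 135 and 141 in flox against 105, 94.8 and 117 in AKO samples, again without overlap. Rpl37a had -0.38 ± 0.190 and Rpl24, which lies at a bridge between the subunits, had -0.34 ± 0.165 (SE), and in both the groups overlap. These genes had a mean of at least 50 normalized reads. Below that level, the smaller promoter peak of Rpl4, chosen after its values were seen, held 49.9, 35.6 and 32.7 in the flox against 32.3, 29.7 and 20.3 in the AKO samples, without overlap, for a log2 fold change of -0.51 ± 0.230 (SE).

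At the high end in iWAT (mean of at least 50 normalized reads), Rpl22 had a log2 fold change of 0.27 ± 0.144 (SE). Rplp0 was next and Rpl35, near the exit tunnel, had 0.23 ± 0.175. Rpl22 held 254, 275 and 233 in the flox against 302, 344 and 277 in the AKO samples. Every AKO sample of Rpl22 was above every flox sample. Rpl35, with 207, 229 and 176 in the flox against 197, 264 and 259.8 in the AKO samples, overlapped.

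**Figure D4:**
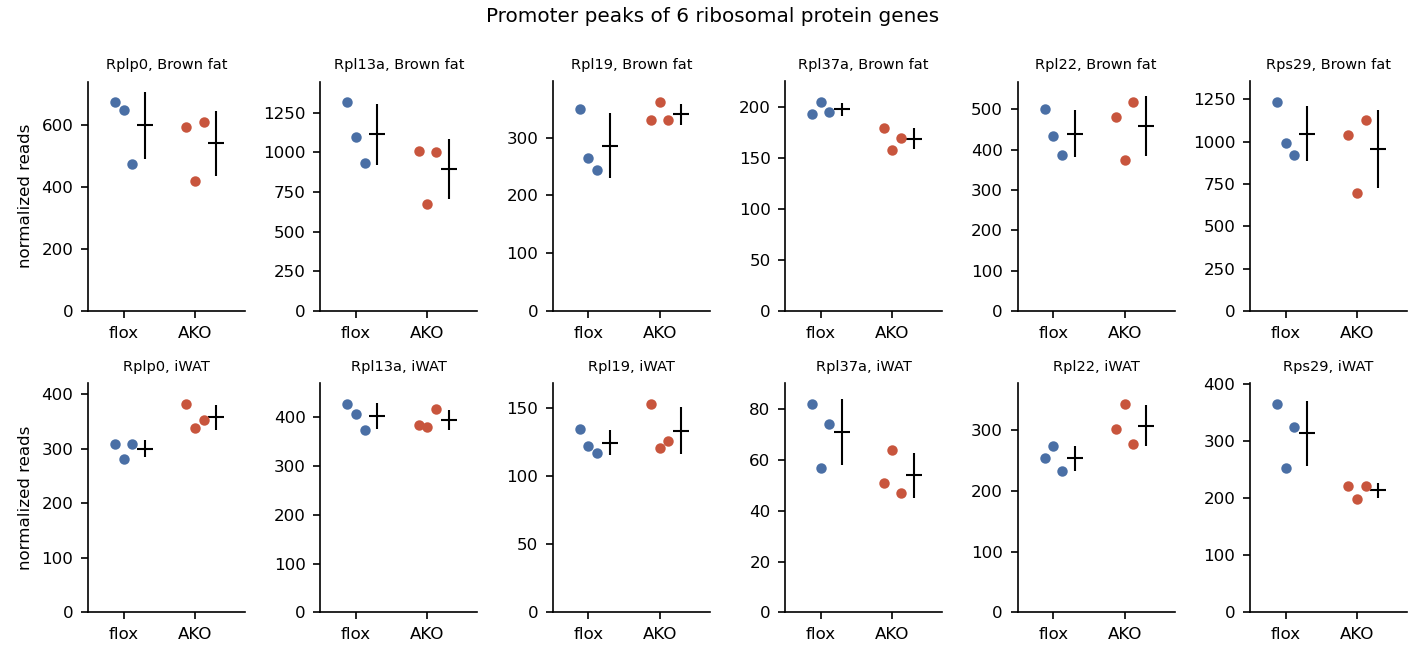
Normalized reads (vertical axes, from 0) of the promoter peaks of Rplp0, Rpl13a, Rpl19, Rpl37a, Rpl22 and Rps29 by genotype, in brown fat (top) and iWAT (bottom), with points for samples and bars for mean ± SD of 3. Genotypes separate for Rpl37a in brown fat, from 193 to 205 against 158 to 179, and for Rplp0, Rpl22 and Rps29 in iWAT.

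Counted over all members, every AKO sample lay below every flox sample in 16 of 176 peaks in brown fat (8.84% of all peaks) and above in 8 (8.77% of all peaks). In iWAT the counts were 17 of 132 below (10.3% of all peaks) and 17 above (10.6% of all peaks). The member shares were 9.09% and 4.55% in brown fat and 12.9% both ways in iWAT. The 8 peaks above in brown fat were 0 of 64 promoter peaks (9.40% of all promoter peaks) and 8 of 112 distal peaks (8.60% of all distal peaks), and the difference from these shares was not tested. Below in brown fat were 4 of 64 promoter peaks (6.38% of all promoter peaks). In iWAT promoters had 8 below and 7 above of 67 (9.63% and 9.52% of all promoter peaks).

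**Figure D5:**
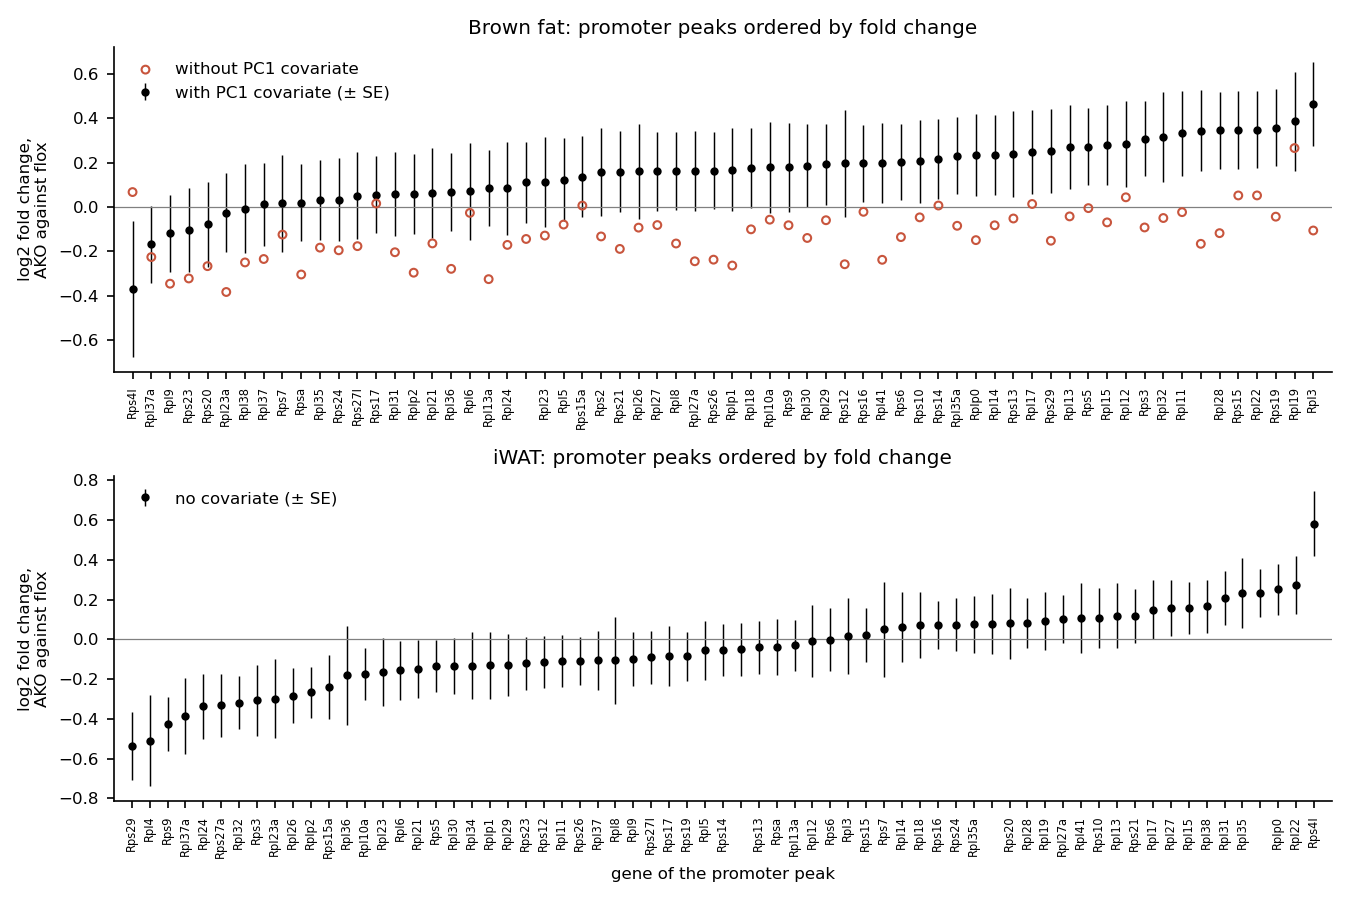
Log2 fold change of AKO against flox (vertical axes) of each ribosomal protein promoter peak, ordered by value (horizontal axes), with SE bars. In brown fat 57 of 64 values are above 0 with the PC1 covariate, and 55 of 64 are below 0 without it (open circles). In iWAT 27 of 67 are above 0.

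The distal member peaks were smaller than the promoter peaks, with a median of 104 normalized reads in brown fat and 60.9 in iWAT, and lay a median of 28533 bp and 29854 bp from the nearest start of their gene. In brown fat 60 of 112 had their middle inside another gene, 50 outside any gene and 2 in the member gene itself, so the assignment to a ribosomal protein gene rests on distance. The peaks were unevenly spread, with 13 near Rplp1, 12 near Rps24 and 11 near Rpl34 in brown fat and 14 near Rps24 and 9 near Rplp1 in iWAT. The largest in both tissues was the peak of Rps28 inside Kank3, 6351 bp from the Rps28 start in brown fat. It held 897, 857 and 739 normalized reads in the flox against 906, 738 and 991 in the AKO samples of brown fat, which overlap, and 409.9, 438 and 386 in the flox against 534, 477 and 491 in the AKO samples of iWAT, which do not. Its log2 fold change was 0.32 ± 0.179 (SE) and 0.28 ± 0.129 (SE).

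Of 54 distal member peaks in brown fat that overlapped an iWAT member peak by at least 1 bp, 1 was lower without overlap of the genotypes in both tissues, 1 was higher in both and 1 went in opposite directions. Of 63 promoter pairs 0 did any of these. In each tissue alone, 9.47% of all distal peaks were lower and 8.60% higher in brown fat, and 10.6% and 11.0% in iWAT. The joint share over all peaks shared by the tissues was not computed, so these counts are a description. The lower one lay 153940 bp from the Rpl34 start (chr3:130884338-130884932 in brown fat). It held 391, 413 and 393 in the flox against 277, 205 and 217 in the AKO samples of brown fat, and 49.9, 41.1 and 56.8 in the flox against 26.5, 29.7 and 38.5 in the AKO samples of iWAT. Its log2 fold changes were -0.66 ± 0.205 and -0.63 ± 0.190 (SE, adjusted p = 0.48 and 0.21, limma with Benjamini-Hochberg adjustment). The higher one lay 19938 bp from the Rps24 start (chr14:24510691-24511251 in brown fat) and held 228, 217 and 221 in the flox against 314, 297 and 253 in the AKO samples of brown fat, and 76.3, 71.2 and 50.8 in the flox against 103, 95.9 and 90.9 in the AKO samples of iWAT. Its log2 fold changes were 0.37 ± 0.194 and 0.56 ± 0.180 (SE). These 2 peaks were singled out after their values were seen.

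Without PC1, DESeq2 called 2 members in brown fat (1.03% of all peaks), both distal and both outside any gene. They were the Rpl34 peak just described, with a log2 fold change of -0.77 and a Benjamini-Hochberg adjusted p of 0.031, and a peak 82176 bp from the Rps15a start with 1.45 and 0.056. The latter held 18.3, 31.0 and 49.2 in the flox against 66.0, 124 and 73.9 in the AKO samples, which do not overlap, and its limma log2 fold change with PC1 was 0.63 ± 0.201 (SE). The 4 members that edgeR called in iWAT beside Rps29 were distal peaks of Rplp1 and Rpl29, which were lower in AKO, and of Rps28 and Rps15, which were higher, with log2 fold changes of -0.89, -0.63, 0.29 and 0.61 and Benjamini-Hochberg adjusted p of 0.042, 0.086, 0.068 and 0.085.

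Paralogs of the canonical proteins fit the symbol rule, and those with peaks count in all member totals. With PC1, the Rps4l promoter had the lowest fold change of all member promoters in brown fat. Without a covariate it had the highest in iWAT. Rps27l, a p53-inducible relative of Rps27, had an open promoter with 792, 671 and 611 normalized reads in the flox against 586, 537 and 715 in the AKO samples of brown fat, and 344, 325 and 348 in the flox against 317, 350.5 and 290 in the AKO samples of iWAT, with overlap in both. Its 2 distal peaks in brown fat had log2 fold changes of 0.11 and 0.46. The Rps4l promoter held 71.1, 48.8 and 93.1 in the flox against 57.7, 100.4 and 64.3 in the AKO samples of brown fat, with overlap, and 30.7, 33.4 and 43.9 in the flox against 51.9, 54.8 and 54.5 in the AKO samples of iWAT, where every AKO sample was higher, for a log2 fold change of 0.58 ± 0.164 (SE, adjusted p = 0.19, limma with Benjamini-Hochberg adjustment). Of 4 distal Rps4l peaks in brown fat, with log2 fold changes of -0.60 to -0.14, the one 17724 bp away inside Tmtc1 held 263, 244 and 232 in the flox against 182, 133 and 125 in the AKO samples, without overlap. Its log2 fold change was -0.60 ± 0.226 (SE, adjusted p = 0.53, limma with Benjamini-Hochberg adjustment). The 2 distal Rps4l peaks in iWAT had 0.24 and 0.36. Rpl10l, a testis paralog, had only peaks more than 50000 bp away, 5 in brown fat and 2 in iWAT, with log2 fold changes of -0.86 to 0.15 and of -0.52 and -0.084. Rpl3l and Rpl39l had no member peak.

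Ribosomal protein starts inside a peak of another symbol are given apart from the members. In brown fat the 10 such peaks had a median log2 fold change of 0.20 with 9 above 0 with PC1, and -0.11 with 0 above 0 without it. In iWAT the 7 peaks had a median of -0.043 with 3 above 0.

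Promoter peaks of other gene groups of translation and energy metabolism also had medians above 0 with PC1 and below 0 without it in brown fat. With PC1 the median log2 fold change was 0.13 for 63 promoter peaks of mitochondrial ribosomal proteins, 0.11 for 54 of translation factors (Eif and Eef) and 0.082 for 76 of oxidative phosphorylation. Without PC1 these medians were -0.14, -0.18 and -0.19, beside -0.13 for the cytosolic ribosomal proteins. Every AKO sample was below every flox sample in 6 of 63, 1 of 54 and 13 of 76 peaks, beside 4 of 64 for the cytosolic ribosomal proteins, and above in 0 of each group. The shares below were 9.52%, 1.85% and 17.1%, beside 6.25%. Over all promoter peaks in brown fat 6.38% were below and 9.40% above. Limma called 0 peaks in each of these groups in both tissues, and DESeq2 called 1 translation factor promoter in brown fat and 1 promoter of each of the 3 groups in iWAT. Of all promoter peaks DESeq2 called 24 of 12013 in brown fat and 96 of 11361 in iWAT. In iWAT the medians were -0.033, 0.040 and -0.026. Whether the groups differ from each other was not tested.

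Fold changes of promoters with and without the sequence features lay close together in brown fat. Only member promoters with an available sequence were compared. In brown fat 24 member promoters with the ETS word had a median log2 fold change of 0.16 and 22 without it one of 0.19, and in iWAT the medians were 0.063 for 23 and -0.070 for 24. For the pyrimidine tract at the start the medians were 0.18 for 10 promoters with and 0.16 for 36 without it in brown fat, and 0.095 for 10 and -0.056 for 37 in iWAT. Promoters with the ETS word had a higher level, with a median of 59.0 normalized reads per 100 bp against 45.2 in brown fat, and of 35.1 against 28.0 in iWAT tissue. Member promoter peaks had a median GC content of 60.3% in brown fat and 62.4% in iWAT, beside 62.3% and 64.1% for all promoter peaks. In iWAT the log2 fold change followed the GC content of the peak with a Spearman's rho of 0.50 over 67 member promoters, beside 0.27 over all promoter peaks, and in brown fat rho was 0.060 over 64, beside 0.18. These are descriptions across peaks that share libraries, depth and base composition, and the part of GC content in the iWAT values was not tested.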

How the data were processed

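ATAC-seq libraries were labelled as made from 50000 nuclei per reaction (the paper's methods give a smaller number) and read as 38 bp pairs, with inguinal reads trimmed to that length. Per the paper's methods and the submitters' processing notes, the authors mapped autosomal reads to mm10 with BWA 0.7.17-r1188, marked duplicates with Picard 2.8.14, called broad peaks per sample with MACS2 2.1.1.20160309 and counted reads in the union of peaks with bedtools 2.27.1. The deposited signal values are read numbers scaled by each sample's size factor, from which whole reads were recovered for 100% of values (tolerance 0.0001). The deposited log2 fold changes, the deposited p-values and the adjusted p-values, of the authors' own DESeq2 1.20.0 comparison of genotypes, were not used. Deposited distances to start sites served to settle that starts count from 0. Positions are given from 1.

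Each table was fitted on its own over all peaks in limma (lmFit, then eBayes), as log2 of normalized reads plus 1, for the effect of AKO over flox, with PC1 of all peaks as covariate in brown fat, Benjamini-Hochberg adjustment and a threshold of 0.1. Fold changes are on that scale, which understates changes of small peaks. With 3 against 3 samples an exact permutation test cannot go below p = 0.1. Members and lists were chosen with earlier results of these data known. Named were, per table, the 4 highest and 4 lowest fold changes among promoter peaks with a mean of at least 50 reads, the 4 highest levels, reference genes, called peaks, the largest distal peak, paralogs and peaks opposite in the tissues. Some members count in every total and are not reported here by name. Alternatives were total reads, TMM, a floor of 10 reads per sample, a pseudocount of 0.1 or 10, DESeq2 and edgeR on the recovered reads, each sample left out, a replicate block, the PC1 covariate removed or added, a wider symbol rule, adjusted p under 0.05, a promoter window of 500 bp each way and a promoter stretch from 100 before to 50 after the start for words. DESeq2 without PC1, leave-outs without PC1, non-overlap under other scalings and promoters by the middle of the peak were added after values were seen. Fits without a covariate and the word search were tested on simulated data, and the fit with PC1 was not. RefSeq promoter sequences (GRCm38.p6) were available for 57 of 78 autosomal genes. R 4.3.3, limma 3.58.1, edgeR 4.0.16, DESeq2 1.42.0, Python 3.11.15, matplotlib 3.10.9, scipy 1.17.1, pandas 2.3.3 and numpy 2.4.6 were used.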

Additional observations from a re-analysis of the deposited data

Results flagged for a closer look

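A distal peak 10330 bp from the Rps13 start went in opposite directions in the 2 tissues (chr7:116323612-116323860 in brown fat and chr7:116323691-116323892 in iWAT). It held 62.7, 62.1 and 56.9 normalized reads in the flox against 52.6, 27 and 48.0 in the AKO samples of brown fat, every AKO sample lower, and 27.1, 23.3 and 25 in the flox against 42.6, 38.8 and 31.0 in the AKO samples of iWAT, every AKO sample higher. The log2 fold change was -0.13 ± 0.238 (SE) with PC1 and -0.55 without it in brown fat, and 0.55 ± 0.159 (SE) in iWAT. The difference between the tissues was not tested, since the tables were normalized separately. The brown fat value with PC1 was between -0.29 and 0.17 when 1 sample at a time was left out, and was positive without flox 3.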

How the results depend on the processing

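In brown fat the median log2 fold change of the member promoters was 0.17 and stayed between 0.12 and 0.24 when 1 sample at a time was left out, but was -0.13 without the PC1 covariate and -0.12 by DESeq2 without it. In the fit without PC1 the leave-outs gave -0.23 to 0.018. In iWAT the median was -0.054, between -0.074 and -0.0066 with 1 sample left out, and 0.35 with a PC1 covariate, where PC1 separates the genotypes (-41.4 to -30.9 in flox, 29.4 to 37.8 in AKO) and so removes the comparison itself. Members called were 0 by limma under its alternatives in both tissues, including every sample left out (0 to 0), 2 in brown fat by DESeq2 without PC1, and in iWAT 1 by DESeq2 and 5 by edgeR.

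Without PC1 in brown fat, 9 named peaks changed sign, by limma and by DESeq2 respectively: Rpl3 to -0.11 and -0.060, Rps19 to -0.043 and -0.028, Rps21 to -0.19 and -0.18, Rpl15 to -0.069 and -0.065, Rpl13a to -0.33 and -0.31, Rplp0 to -0.15 and -0.14, the Rps27l promoter to -0.18 and -0.17, the Rpl10l peak from 66707366 to -0.41 and -0.40, and the Rps4l promoter to 0.068 and 0.053. With PC1 in iWAT, 10 did: Rpl22 (-0.34), Rps29 (1.04), Rps9 (0.76), Rpl24 (0.27), Rpl13a (1.0), Rps21 (-0.084), the Rps4l promoter (-0.74), the Rps4l peaks from 148381171 (-0.84) and 148384510 (-1.92), and the Rps13 peak (-0.17). With 1 sample left out the ranges that crossed 0 in brown fat were -0.19 to 0.0078 for Rps23, -0.078 to 0.24 and -0.14 to 0.29 for the Rps27l promoter and its peak from 66937135, -0.55 to 0.071 for the Rps4l peak from 148384481, -0.61 to 0.29 and -0.026 to 0.48 for the Rpl10l peaks from 66730909 and 66707366, and -0.29 to 0.17 for the Rps13 peak. In iWAT they were -0.084 to 0.013 for Rpl13a, -0.011 to 0.16 for Rpl19 and -0.34 to 0.048 for the Rpl10l peak from 66564996. None of these peaks was called by limma, and the cause of these changes was not tested.

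Same-numbered samples of the 2 genotypes deviated with correlations of -0.24 to 0.49 in brown fat and -0.057 to -0.039 in iWAT, so the numbers were not taken as pairs. With a replicate block the medians were 0.21 and -0.054, and 0 members were called in each tissue. Depth limits the distal peaks most: 21 of 112 in brown fat and 26 of 65 in iWAT had a mean under 50 normalized reads.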
